A study of Mus musculus with 20 samples.

Results

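The genes described here encode the cell-cell junction and apical polarity machinery of the compacting mouse embryo: the cadherin-catenin complex (Cdh1, Ctnnb1, Ctnna1, Ctnnd1), the PAR-aPKC complex (Pard3, Pard6b, Prkci, Prkcz) and the apical cortex with its small GTPase (Ezr, Rhoa). They were chosen by symbol, and all 10 were found among the 34937 genes counted in each embryo. RNA of single 8C embryos at E2.5 was compared between 9 Ehmt2Cntr embryos, whose mothers were Ehmt2F/+ with Zp3-Cre, and 10 Ehmt2Mat embryos, whose mothers were Ehmt2F/- with Zp3-Cre. Ehmt2 encodes G9a, a methyltransferase that makes the repressive mark H3K9me2, and Zp3-Cre is active in growing oocytes, so that the mother's conditional allele was recombined before fertilisation and both groups came from Cre-carrying females. Of the Ehmt2Cntr embryos, 6 had the zygotic genotype +/+ and 3 had +/-, and of the Ehmt2Mat embryos 5 had +/- (Ehmt2M/+) and 5 had -/- (Ehmt2M/Z), all on a mixed genetic background. Control embryo 4 was not analysed here. Which embryos shared a mother or litter is not given in the sources used here, so p-values measure the spread between embryos, which may hold that between litters.

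Compaction is the step at which the round blastomeres of the 8C embryo flatten against each other. E-cadherin joins neighbouring cells, beta-catenin links it to alpha-catenin, which binds actin, and p120-catenin keeps cadherin at the membrane. At the same stage each blastomere builds an apical domain, where PAR3, PAR6 and atypical protein kinase C gather, ezrin ties the membrane to actin and RhoA drives actomyosin contraction. Much of this machinery is present as protein before compaction and is controlled by its position in the cell and by phosphorylation, which RNA counts do not measure.

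Total counts were between 8231646 and 30602434 per embryo, so that 3 counts in an embryo were worth 0.098 to 0.364 CPM (counts scaled to a common library total, with TMM factors). All 10 genes had counts in all 19 embryos, from 2 counts to 9395, and all 10 were among the 11754 genes that passed the filter on low counts. A level is a share of the RNA of a whole embryo, so fewer cells expressing a gene and less of its RNA in each cell cannot be told apart. Ehmt2 itself ranged in Ehmt2Cntr embryos from 66.6 to 253 CPM (median 133) and in Ehmt2Mat embryos from 58.7 to 159 CPM (median 94.9). The groups overlapped, the log2 fold change was -0.47 ± 0.24 (SE) and the adjusted p in edgeR was 0.233, with reads from a recombined transcript included in the count. The cleavage-stage markers Pou5f1, Tead4, Klf17, Zfp42, Dppa3, Nlrp5, Zbed3 and Khdc3 were counted in the embryos of both groups, with a summed level of 1928 to 3328 CPM in controls and 3097 to 3961 CPM in mutants. Most of this sum was Dppa3, at 1261 to 2623 CPM in controls and 1970 to 2872 CPM in mutants. Of these 8, Tead4 and Klf17 rose and Khdc3 fell in Ehmt2Mat embryos, while 4.37% of all tested genes rose and 4.98% fell.

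Between the maternal groups, 1 of the 10 genes passed the test. Ctnnb1, which encodes beta-catenin, fell in Ehmt2Mat embryos to 0.587 times its control level. Against all tested genes this is a share near the background: 1099 of 11754 genes, or 9.35%, passed the same threshold of an adjusted p of 0.05, and 4.98% passed it with a lower level. Of the 10 genes, 7 had a log2 fold change below 0 and their median was -0.36, while 52.4% of all tested genes were below 0 and their median was -0.04. None of the 10 separated the groups without overlap, which 0.519% of all tested genes did. DESeq2 also called 1 of the 10, beside 16.3% of all genes to which it gave an adjusted p.

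**Figure D1:**
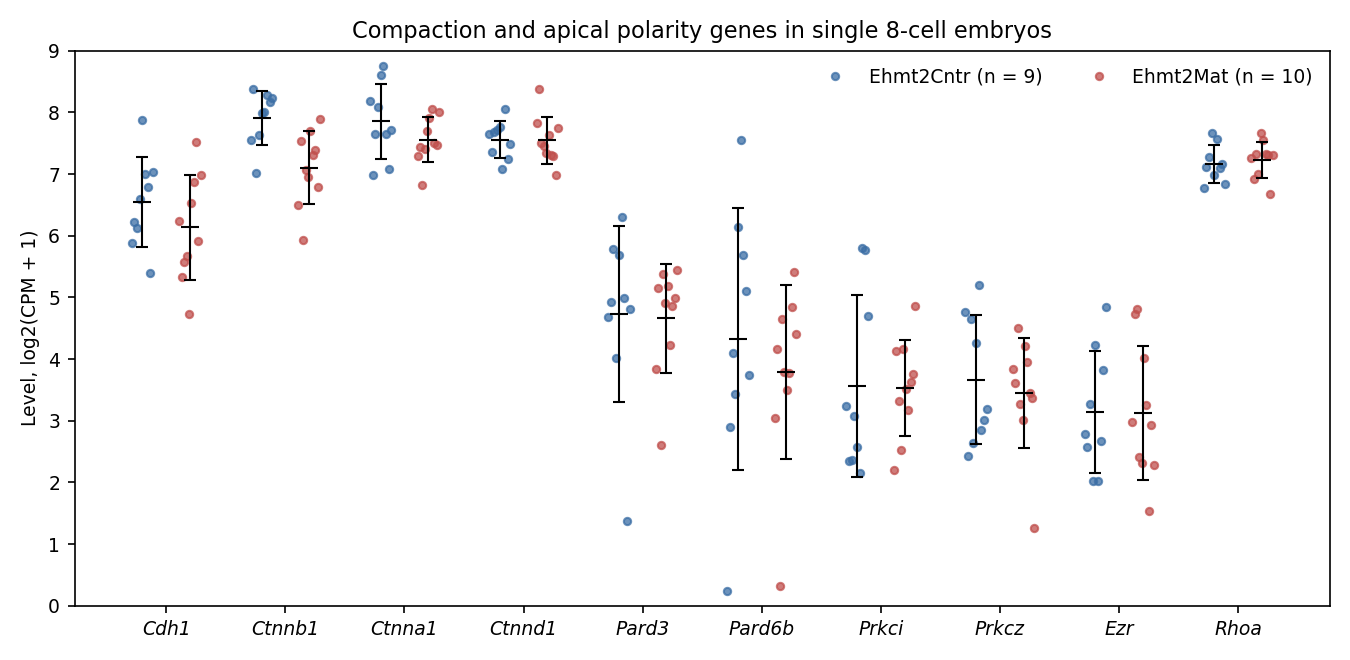
Level of each gene in each embryo as log2(CPM + 1), with 9 Ehmt2Cntr embryos in blue and 10 Ehmt2Mat embryos in red; black marks give the mean and SD on this scale. The cadherin-catenin genes and Rhoa lie above the PAR-aPKC genes and Ezr in mean level, Cdh1 spreads about as widely among the mutants as Pard3, and the groups overlap for every gene.

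In the cadherin-catenin complex, beta-catenin (ENSMUSG00000006932, chr9:120929216-120960507, GRCm38, plus strand) also takes part in Wnt signalling, where it acts in the nucleus. Ctnnb1 ranged from 128 to 330 CPM in Ehmt2Cntr embryos (median 255) and from 60.2 to 236 CPM in Ehmt2Mat embryos (median 145). The ranges overlapped: all 10 mutants lay below the control median, 4 of them (embryos 1, 3, 5 and 9) lay below every control, and 6 controls (embryos 2 and 6 to 10) lay above every mutant. The means were 250 ± 66.7 CPM (SD, n = 9) and 147 ± 54.1 CPM (SD, n = 10). The log2 fold change was -0.77 ± 0.22 (SE; 95% interval -1.23 to -0.30), with an adjusted p of 0.0316 in edgeR and an unadjusted p of 0.00364 in the two-sided exact permutation test over the 92378 splits of the embryos. The call lay close to the threshold. It was lost without any 1 of 7 embryos (controls 2, 8 and 9, mutants 1, 4, 5 and 9), where the adjusted p rose to between 0.0509 and 0.0586, and with no filter on low counts, where it was 0.0513.

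The Ctnnb1 count also holds reads that may belong to a neighbour. In its exons, 240 bases (4.71%) are shared with Ulk4, a kinase-like gene on the opposite strand. Reads were counted without strand for every gene they overlapped. Of the distinct 50-base windows of Ctnnb1 transcripts, 12.3% also occur in Ulk4 in a later annotation. The median count over the embryos was 508 for Ulk4 and 3301 for Ctnnb1. Ulk4 was called lower too, with a log2 fold change of -0.99 (adjusted p = 0.0258), and it was the tested gene whose level followed that of Ctnnb1 most closely. With all Ulk4 counts subtracted from Ctnnb1 in each embryo, the Ctnnb1 log2 fold change was -0.72 (adjusted p = 0.0463), an alternative chosen after seeing the data.

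A promoter of Ctnnb1, the gene that passed the test, is shown from RefSeq (GRCm38.p6) as the 250 bases before and 50 after an annotated start, at chr9:120933150-120933449 on the plus strand. Beside it is that of Pard6b, at chr2:168080754-168081053 on the plus strand. Pard6b had the widest range between embryos on log2(CPM + 1), with low ends that rest on 3 and 2 counts. Capitals mark each CpG (the letters CG, which read the same on both strands).
Ctnnb1: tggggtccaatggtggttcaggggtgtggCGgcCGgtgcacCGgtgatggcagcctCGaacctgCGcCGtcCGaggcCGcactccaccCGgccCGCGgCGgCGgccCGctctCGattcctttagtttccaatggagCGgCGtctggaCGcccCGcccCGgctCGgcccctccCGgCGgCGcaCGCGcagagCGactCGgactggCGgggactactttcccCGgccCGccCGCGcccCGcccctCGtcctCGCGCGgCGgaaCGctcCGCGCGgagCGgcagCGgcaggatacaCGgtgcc
Pard6b: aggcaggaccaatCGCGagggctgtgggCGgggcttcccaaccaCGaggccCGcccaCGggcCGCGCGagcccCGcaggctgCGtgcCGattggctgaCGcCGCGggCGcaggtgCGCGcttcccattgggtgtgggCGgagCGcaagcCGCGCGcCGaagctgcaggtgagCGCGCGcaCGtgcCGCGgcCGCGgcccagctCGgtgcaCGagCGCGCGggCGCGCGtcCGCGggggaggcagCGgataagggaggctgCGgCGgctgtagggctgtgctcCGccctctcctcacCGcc
The Ctnnb1 window shown holds 46 CpGs with a GC content of 75.3%, and the Pard6b window holds 47 with 77.0%. Another annotated Ctnnb1 start has an overlapping window at chr9:120933328-120933627, which holds 51 CpGs. Of all 32851 promoter windows in the table, 1.65% hold at least as many as the Ctnnb1 window shown and 0.715% at least as many as the other. For Pard6b the share is 1.44%, and the median window holds 7. Windows were found for 8 of the 10 genes, all but Cdh1 and Ctnna1, and 14 windows belong to these 8. Neither methylation nor H3K9me2 at these sequences was measured in the embryos.

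The other members of the junction complex did not pass the test. Cdh1 (ENSMUSG00000000303, chr8:106603351-106670246), which encodes E-cadherin, the adhesive transmembrane partner, ranged from 41.0 to 233 CPM in controls (median 95.4) and from 25.5 to 182 CPM in mutants (median 67.2). Its log2 fold change was -0.36 ± 0.34 (95% interval -1.05 to 0.34, adjusted p = 0.586), which spans levels from 0.482 to 1.26 times the control. Without control embryo 6 it was -0.12. Ctnna1 (ENSMUSG00000037815, chr18:35118888-35254773), the alpha-catenin that couples the complex to actin, was 249 ± 105 CPM (SD, n = 9) among controls against 193 ± 48.1 CPM (SD, n = 10) among mutants. For this gene 4 controls lay above every mutant, and the log2 fold change was -0.37 ± 0.22 (95% interval -0.82 to 0.09, adjusted p = 0.338).

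Ctnnd1 (ENSMUSG00000034101, chr2:84600071-84650765, minus strand), the p120-catenin that stabilises cadherin at the cell surface, was among the most even of the genes. It was 191 ± 39.1 CPM (SD, n = 9) among controls against 192 ± 57.0 CPM (SD, n = 10) among mutants, and its log2 fold change was 0.01 ± 0.18 (95% interval -0.35 to 0.38, adjusted p = 0.979). However, 61.2% of its exon bases are also annotated to Gm28635, a gene on the same strand, so reads there counted for both and cannot be assigned to either. Gm28635 had a log2 fold change of 0.50 (adjusted p = 0.200), and with its counts subtracted Ctnnd1 turned to -0.28.

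**Figure D2:**
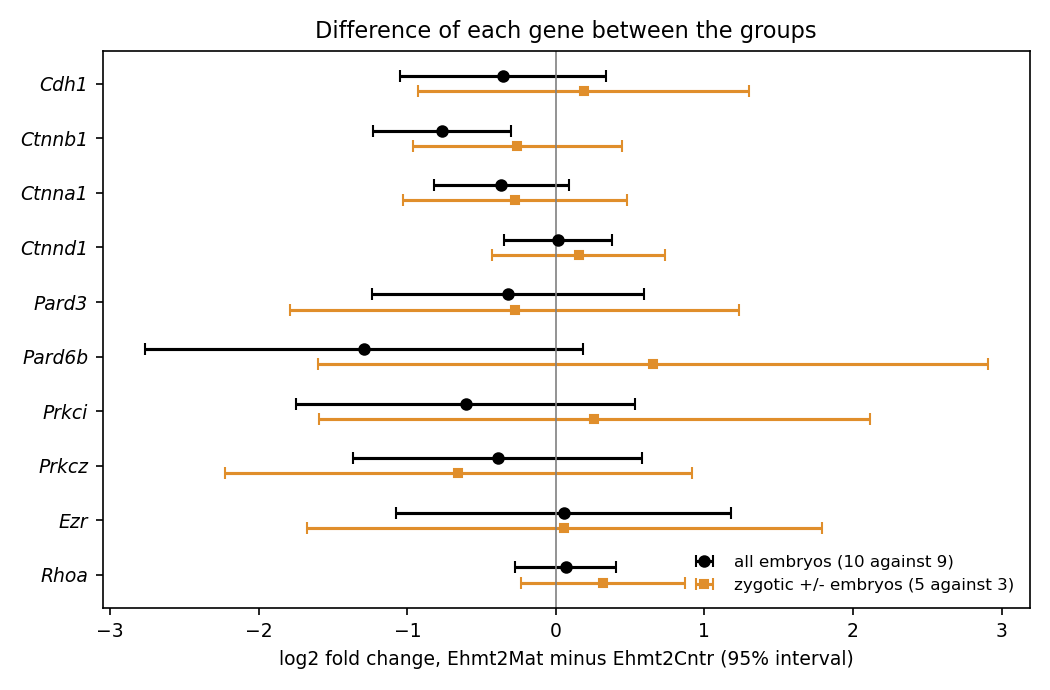
Log2 fold change of each gene, Ehmt2Mat minus Ehmt2Cntr, with its 95% interval, over all embryos (black circles) and among embryos with the zygotic genotype +/- (orange squares). The interval of Ctnnb1 over all embryos, -1.23 to -0.30, is the one that lies wholly below 0, and all 10 intervals among the +/- embryos include 0.

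Within the PAR-aPKC complex all 4 genes had a mean CPM lower in Ehmt2Mat embryos, and none passed the test. Their levels differed between embryos of the same group by more than those of the catenins. Pard6b (ENSMUSG00000044641, chr2:168081004-168101203), which encodes the PAR6 adaptor that holds atypical PKC at the apical domain, ranged from 0.174 to 186 CPM in controls (median 16.2) and from 0.242 to 41.6 CPM in mutants (median 14.9). Control embryo 1 had 3 counts and mutant embryo 3 had 2, at or under the level of 3 counts, whereas control embryo 7 had 2420. Controls 6, 7 and 8 lay above every mutant and control 1 below every mutant. The log2 fold change was -1.29 ± 0.71, with a 95% interval from -2.77 to 0.18 and an adjusted p of 0.286. It moved to -0.51 without control embryo 7, the embryo with the highest level, and to -0.11 with limma-voom.

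Pard3 (ENSMUSG00000025812, chr8:127063893-127612286) encodes the scaffold that brings PAR6 and aPKC together. Its level was 1.60 to 78.2 CPM in controls (median 29.6) and 5.09 to 42.3 CPM in mutants (median 29.9), with the medians almost equal. The log2 fold change was -0.32 ± 0.44 (95% interval -1.24 to 0.59, adjusted p = 0.731), and -0.077 without control embryo 7.

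The kinases of the complex, aPKC iota (Prkci, ENSMUSG00000037643, chr3:30995747-31052959) and aPKC zeta (Prkcz, ENSMUSG00000029053, chr4:155260129-155361361, minus strand), are close relatives. Prkci ranged from 3.46 to 54.9 CPM in controls (median 7.41) and from 3.61 to 28.1 CPM in mutants (median 10.9). In the controls it split into 3 high embryos, numbers 8, 9 and 10 with 54.9, 53.7 and 25.1 CPM, and 6 embryos at or below 8.46 CPM. The mean was thus higher in controls (18.5 against 12.1 CPM) and the median higher in mutants, and 8 of 10 mutants lay above the control median. The log2 fold change was -0.61 ± 0.55 (adjusted p = 0.568), or -0.20 without control embryo 8 and -0.23 without control embryo 9. On log2(CPM + 1), where high embryos weigh less, the difference of means was -0.03 (exact permutation p = 0.953).

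Prkcz ranged from 4.38 to 35.9 CPM in controls (median 8.14) and from 1.39 to 21.6 CPM in mutants (median 10.6), with a log2 fold change of -0.39 ± 0.47 (adjusted p = 0.682), or -0.12 without control embryo 7. The 3 controls high in Prkci had Prkcz levels of 6.23, 7.10 and 8.14 CPM. The 4 controls high in Prkcz (embryos 1, 3, 6 and 7, between 18.2 and 35.9 CPM) had Prkci levels of 3.46 to 8.46 CPM, and controls 2 and 5 were low in both. High and low here follow the control values themselves. Control 1, at 8.46 CPM of Prkci and 26.0 CPM of Prkcz, lay above the control median of both genes. Among the mutants, embryo 10 had the highest Prkci and the lowest Prkcz, the latter from 17 counts. Mutant 2, at 16.4 and 11.3 CPM, lay above the mutant median of both. This is a description of 19 embryos on a shared CPM scale. Of the distinct 50-base windows of Prkcz transcripts, 14.8% also occur in Prkcz2 of a later annotation, so part of its reads cannot be assigned.

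**Figure D3:**
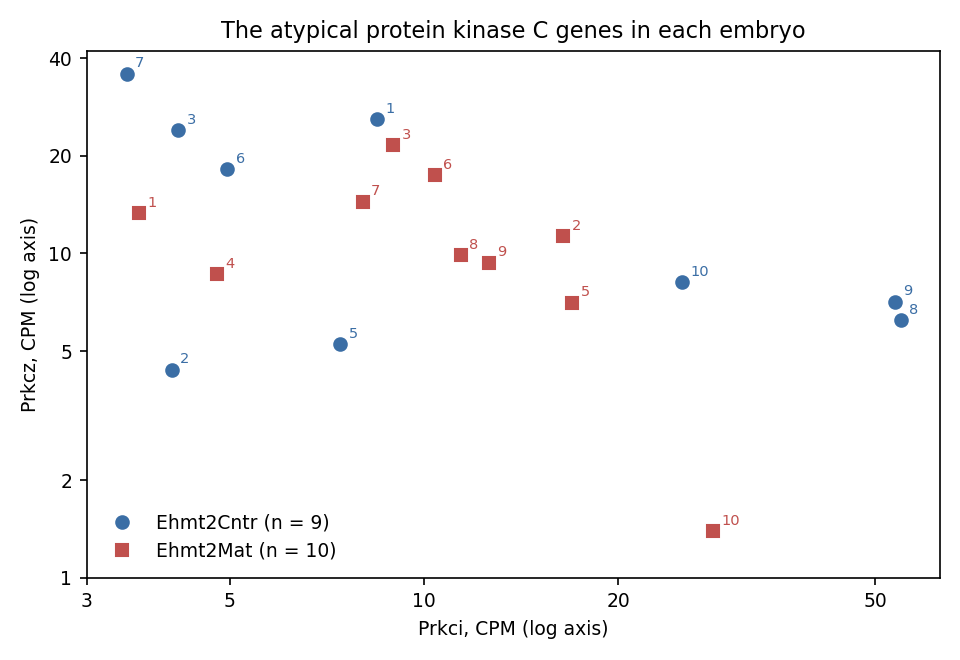
CPM of Prkcz against CPM of Prkci in each embryo, on log axes, with Ehmt2Cntr as blue circles, Ehmt2Mat as red squares and the embryo number beside each point. Controls 8, 9 and 10 lie at the right with Prkci at or above 25.1 CPM and Prkcz at or below 8.14 CPM. No embryo has both Prkci at or above 25.1 CPM and Prkcz at or above 18.2 CPM, cuts taken from these same control values. Mutant 2 lies above the mutant median of both genes.

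At the apical cortex, Ezr (ENSMUSG00000052397, chr17:6738041-6782784, minus strand), which encodes ezrin, an early marker of the apical pole, was low and variable. It ranged from 3.07 to 27.8 CPM in controls (median 5.91) and from 1.91 to 27.1 CPM in mutants (median 6.73). With a log2 fold change of 0.05 ± 0.55 the 95% interval, -1.07 to 1.18, spans levels from 0.475 to 2.27 times the control, so a difference of that size was not detectable with this spread. Rhoa (ENSMUSG00000007815, chr9:108306129-108337934), the GTPase upstream of actomyosin contraction, was the opposite case. It was 145 ± 32.2 CPM (SD, n = 9) among controls against 152 ± 30.0 CPM (SD, n = 10) among mutants. Its log2 fold change of 0.07 ± 0.16 had the narrowest interval of the 10 genes, -0.27 to 0.40 (adjusted p = 0.870). Of its exon bases, 4.32% are shared with the antisense gene Gm37401, whose log2 fold change was 0.00 (adjusted p = 0.998).

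Zygotic genotype differed between the maternal groups, and +/- is the genotype that both contain. Ctnnb1 was 272 ± 47.6 CPM (SD, n = 6) in +/+ controls, 204 ± 86.7 (SD, n = 3) in +/- controls, 171 ± 66.9 (SD, n = 5) in Ehmt2M/+ and 122 ± 25.1 (SD, n = 5) in Ehmt2M/Z embryos. The means decreased in that order, while embryos of neighbouring genotypes overlapped. Among +/- embryos, 5 mutants against 3 controls, the Ctnnb1 log2 fold change was -0.26 ± 0.34 (95% interval -0.96 to 0.45, adjusted p = 0.912 in edgeR). That interval includes both 0 and the value over all embryos, and in this contrast 4 of 11754 genes (0.034%) passed the test, with 973 (8.28%) at an unadjusted p under 0.05. Between Ehmt2M/Z and Ehmt2M/+ embryos it was -0.48 ± 0.30, and between +/- and +/+ controls -0.41 ± 0.34, and neither passed. In those contrasts edgeR called 0 genes, with 187 (1.59%) and 729 (6.2%) at an unadjusted p under 0.05, and DESeq2 called 3 and 49.

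No member passed in any of these 3 contrasts with edgeR or DESeq2, and Pard6b in controls was the one value at an unadjusted p under 0.05. Here the 3 +/- controls held 0.174, 12.4 and 16.2 CPM and the 6 +/+ controls held 6.46 to 186 CPM. The log2 fold change was -2.62 ± 1.18 (unadjusted p = 0.0363, adjusted p = 0.761 in edgeR). Among +/- embryos the maternal contrast of Pard6b was 0.65 ± 1.09, on the other side of 0 from its value over all embryos, and Cdh1 (0.19 ± 0.54) and Prkci (0.26 ± 0.90) also changed side. Ezr was lower in Ehmt2M/Z than in Ehmt2M/+ embryos by a log2 fold change of -1.28 ± 0.73 (unadjusted p = 0.0960), which did not pass.

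**Figure D4:**
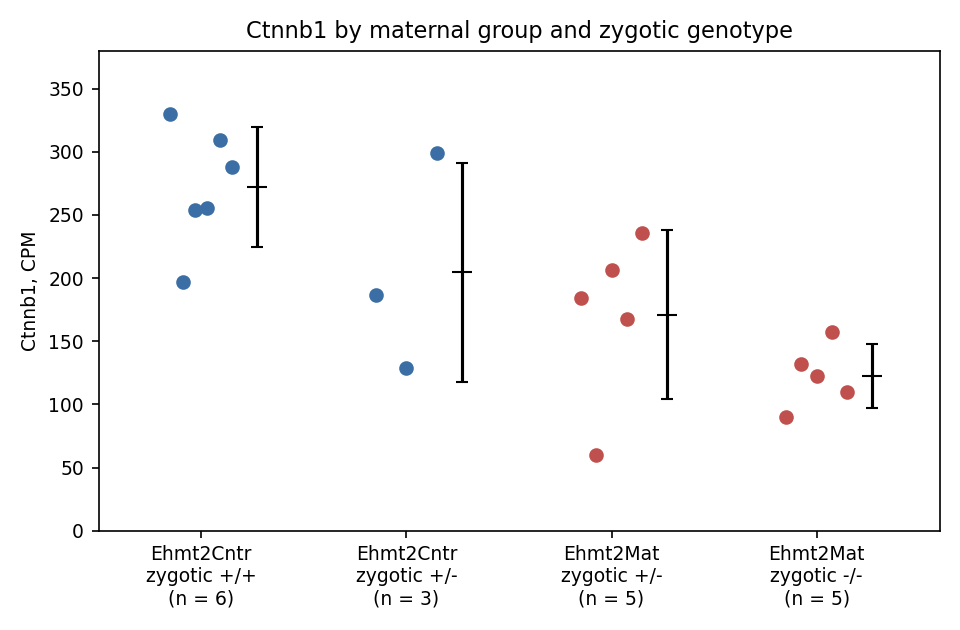
CPM of Ctnnb1 in each embryo by maternal group (blue Ehmt2Cntr, red Ehmt2Mat) and zygotic genotype, with the mean and SD beside each group. The means run from 272 in +/+ controls to 122 in Ehmt2M/Z embryos, and the 3 control and 5 mutant embryos with the +/- genotype overlap.

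Compared per kilobase of exon within the Ehmt2Cntr embryos, the catenins led. Ctnna1 stood at 67.4 ± 28.4 CPM per kb (SD, n = 9), Ctnnb1 at 49.0 ± 13.1, Ctnnd1 at 26.1 ± 5.35, Cdh1 at 22.7 ± 12.5, Rhoa at 19.4 ± 4.30 and Pard6b at 12.6 ± 17.2. The kinases, Ezr and Pard3 followed at the bottom, with Prkci at 3.33 ± 3.85, Ezr at 3.03 ± 2.52, Pard3 at 2.39 ± 1.58 and Prkcz at 2.38 ± 1.81 CPM per kb. Between neighbours in this order, the step from Ctnnb1 to Ctnnd1 was 1.75 times the larger SD and every other step was smaller than the larger SD of its pair. Since the cDNA amplification favours 3′ ends, dividing by the exon length is approximate, and without it Ctnnb1 and Ctnna1 change places at 250 and 249 CPM. In the Ehmt2Mat embryos the same 3 catenins led in the same order. The place of Ctnnd1 rests on counts that may in part belong to Gm28635, which shares 61.2% of its exon bases. The median count was 1089 for Gm28635 and 3344 for Ctnnd1, and the order without the shared reads was not tested.

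The variation within groups also differed between the genes. Across the 9 controls the highest embryo was 1.87 times the lowest for Rhoa, 1.96 times for Ctnnd1, 2.57 times for Ctnnb1, 3.39 times for Ctnna1 and 5.69 times for Cdh1. The same ratio was 8.18 for Prkcz, 9.04 for Ezr, 15.8 for Prkci and 48.9 for Pard3, while for Pard6b the lowest embryo had too few counts for a ratio. In the mutants it was 2.00 for Rhoa, 2.36 for Ctnna1, 2.64 for Ctnnd1, 3.92 for Ctnnb1, 7.15 for Cdh1, 7.76 for Prkci, 8.32 for Pard3, 14.2 for Ezr and 15.5 for Prkcz. By this ratio the cadherin-catenin genes and Rhoa lay below Ezr and the PAR-aPKC genes with a ratio in both groups. In the mutants Cdh1 at 7.15 lay next to Prkci at 7.76. The genes with the larger ratios also had the lower mean CPM, and the part of level in this spread was not tested.

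The remaining genes of the pathway were read from lists of junction, polarity and actomyosin genes that leave out these 10. Of 75 such genes tested, 8 fell (10.7%, beside 4.98% of all tested genes) and 1 rose (1.33%, beside 4.37%) in Ehmt2Mat embryos, and their median log2 fold change was -0.28. Leaving out 1 embryo at a time, between 5 and 9 of them fell and between 1 and 3 rose. The number that fell was 5 without control 7 or mutant 1, 4 or 9. The number that rose was 2 without control 1, 3 or 8 or mutant 5, 6 or 10, and 3 without control 10. With DESeq2 13 fell and 4 rose (8.74% and 7.59% of all genes with an adjusted p), and with no filter on low counts 5 fell and 1 rose. In an edgeR fit of the +/- embryos alone 0 were called, beside 1 of all 13401 genes in that fit.

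Among the junction genes, 4 of 14 tested fell and none rose, beside 4.98% and 4.37% of all tested genes. Their median log2 fold change was -0.60, beside -0.04 for all tested genes. These 14 include the cadherin-catenin members, so Ctnnb1 is counted here again. Afdn, which encodes afadin, the adaptor between nectins and actin, was 76.2 ± 29.3 CPM (SD, n = 9) among controls against 31.8 ± 8.82 CPM (SD, n = 10) among mutants. All 10 mutants lay below its control median, its log2 fold change was -1.26 ± 0.24 (adjusted p = 0.00237), and it was called without each embryo in turn. Plekha7, which encodes a junction protein that binds p120-catenin, fell by 2.14 on the log2 scale (adjusted p = 0.0383) from 12.6 ± 6.46 CPM (SD, n = 9). Ctnnal1, an alpha-catenin relative, fell by 0.72 (adjusted p = 0.0394). The Plekha7 call was lost without control 1, 2, 7, 8 or 9 or mutant 1, 4, 6, 8 or 9, with an adjusted p of up to 0.0701. That of Ctnnal1 was lost without control 1, 6, 7, 8 or 9 or mutant 1, 2, 4, 8 or 9, with an adjusted p of up to 0.0973. The plakoglobin gene Jup, a relative of Ctnnb1, had a log2 fold change of -0.74 and did not pass (adjusted p = 0.111).

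The polarity lists hold 4 to 8 tested genes each, and their counts are read against the 9.35% of all tested genes that edgeR called and the 23.3% at an unadjusted p under 0.05. Counts of 0 to 2 in lists of this size are near that background. Of 6 PAR-aPKC genes tested, 4 of them members, 0 passed in edgeR and in DESeq2, and 1 had an unadjusted p under 0.05, although all 6 had log2 fold changes below 0 (median -0.50). Cdc42, the GTPase that activates PAR6, was at -0.28 and Pard6a at -0.86 (adjusted p = 0.116). Of 4 Crumbs complex genes 0 passed with either tool or without adjustment, and Crb3 and Lin7c were at 0.00 and -0.15. Of 7 basolateral genes 1 fell, Scrib, a scaffold that opposes the apical domain, with a log2 fold change of -0.92 ± 0.28 (adjusted p = 0.0390), while 4 of the 7 were above 0 and the median was 0.14. DESeq2 called 3 of these 7 genes, Scrib lower and Llgl1 and Stk11 higher, beside 16.3% of all genes to which it gave an adjusted p. In edgeR 3 of the 7 had an unadjusted p under 0.05, beside 23.3% of all tested genes. The log2 fold changes of Llgl1 and Stk11 in edgeR were 0.72 (adjusted p = 0.0956) and 0.67 (adjusted p = 0.0513). The Scrib call was lost without control 1, 3, 6 or 7 or mutant 1, 2, 4, 5, 6, 8 or 9, with an adjusted p of up to 0.0991. Of 8 genes of ezrin, its relatives and the apical cortex 0 passed in edgeR, 1 passed in DESeq2 and 2 had an unadjusted p under 0.05. Of 5 other PKC and phospholipase C genes tested (Prkcd, Prkce, Prkch, Plcb3 and Plcg1) 0 passed with either tool and 1 had an unadjusted p under 0.05. Prkca and Prkcb were below the filter on low counts.

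In the actomyosin list 2 of 28 genes fell and 1 rose, counts near the 4.98% and 4.37% of all tested genes. DESeq2 called 6 of the list, beside 16.3% of all genes to which it gave an adjusted p. In edgeR 13 of the 28 had an unadjusted p under 0.05, beside 23.3% of all tested genes. Rac1, a GTPase of actin protrusions, was 135 ± 29.6 CPM (SD, n = 9) among controls against 61.5 ± 28.8 CPM (SD, n = 10) among mutants, a log2 fold change of -1.13 ± 0.24 (adjusted p = 0.00396). Actb, the cytoplasmic beta-actin, was 196 ± 94.1 and 86.2 ± 33.2 CPM, a log2 fold change of -1.18 ± 0.27 (adjusted p = 0.00750). Myl6, a myosin light chain, rose from 6.07 ± 1.97 to 16.4 ± 7.05 CPM, a log2 fold change of 1.43 ± 0.36 (adjusted p = 0.0129), and all 10 mutants lay above its control median. Some of these counts are shared with other genes: 50.3% of the 50-base windows of Rac1 transcripts also occur in Daglb, 9.12% of those of Actb in 18 other genes and 8.38% of those of Myl6 in 5.

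Of the remaining listed genes that passed, Rnd3, which encodes a GTPase that antagonises RhoA, was 40.4 ± 39.8 CPM (SD, n = 9) among controls against 4.81 ± 3.40 CPM (SD, n = 10) among mutants, a log2 fold change of -3.08 ± 0.64 (adjusted p = 0.00410). Arhgap1, a GTPase-activating protein of Cdc42, fell by 0.85 on the log2 scale (adjusted p = 0.00871). Both were called without each embryo in turn. Rhoa itself did not pass. None of the genes on these lists was called in the matched +/- contrast of edgeR, where 4 of all 11754 genes (0.034%) were called.

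**Figure D5:**
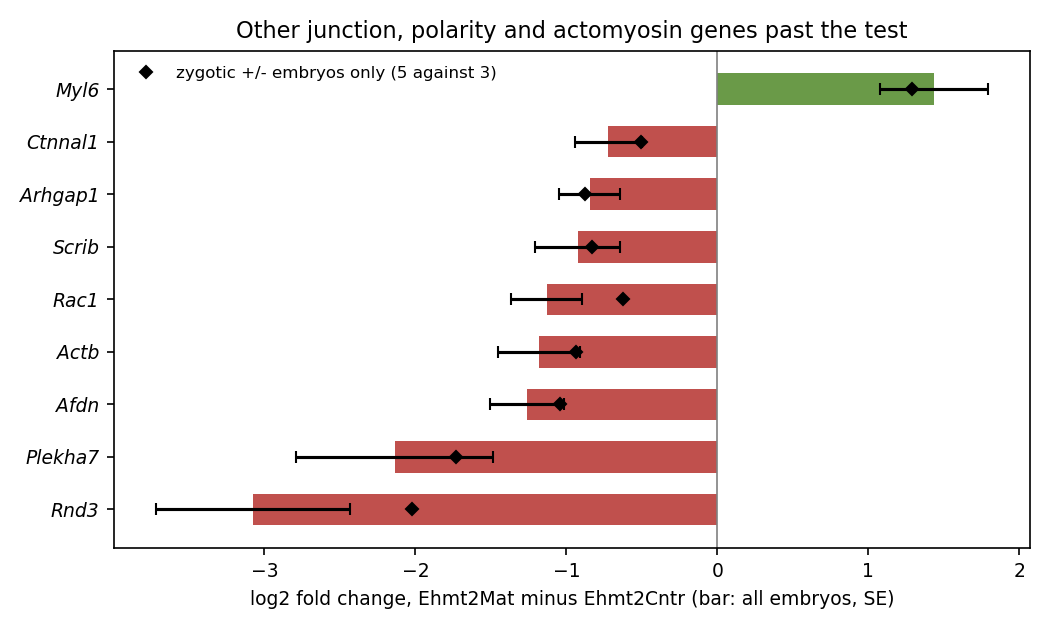
Log2 fold change, Ehmt2Mat minus Ehmt2Cntr, of the 9 other junction, polarity and actomyosin genes that passed the test, as bars with SE over all embryos; diamonds give the same contrast among +/- embryos. Myl6 is above 0 and the other 8 are below it, down to -3.08 for Rnd3, and all 9 diamonds lie on the same side of 0 as their bars. The +/- embryos are part of the embryos by which these genes were chosen, so a shared side is partly built in and is no separate test.

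The genes whose levels followed each member most closely were found by Pearson's r of the log2 CPM deviations from the group means, over the 19 embryos and all tested genes. These points share library and scaling, and the highest of 11754 values is large by selection. For Rhoa it was Gm37401 (0.880) and for Ctnnd1 it was Gm28635 (0.791), as for Ctnnb1 and Ulk4 (0.867) genes that share exon bases with the member. The next genes were Arfgef1 for Ctnnb1 (0.852), Mtmr4 for Rhoa (0.766) and Prdx1 for Ctnnd1 (0.748). For Cdh1 they were Pigb (0.823) and Cnn3 (0.801), and for Ctnna1 they were Usp48 (0.834) and Samd11 (0.817). Pard3 was followed by Mtss1 (0.855) and Parp6 (0.853), and Pard6b by Nlrp5-ps (0.897) and Cadm1 (0.875). Prkci was followed by Gm42457 (0.902) and Mfsd14a (0.897), Prkcz by Nosip (0.882) and Tcirg1 (0.852), and Ezr by Tmc5 (0.807) and Gm15344 (0.806).

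RNA of other sources and stages was measured beside these genes, and its part in the results was not tested. Ovgp1, a secreted oviduct protein, spanned 0.0452 to 371 CPM in controls (median 2.45) and 9.60 to 2799 CPM in mutants (median 103), with a log2 fold change of 3.41 ± 1.27 (adjusted p = 0.0926 in edgeR, 0.0283 in DESeq2, exact permutation p = 0.00324). All 10 mutants lay above the control median of Ovgp1 and 7 controls lay below every mutant. The summed level of the 8 oviduct and blood markers was 1.08 to 391 and 22.7 to 2839 CPM. Nearly all of the highest sum in each group was Ovgp1, at 371 and 2799 CPM. Of the 8 markers 6 were below the filter on low counts, and of the 2 tested, Ovgp1 and Cd68, edgeR called 0. Of the 9 cumulus and granulosa markers, Amh, Foxl2, Fshr, Ptx3 and Has2 were at 0 in every embryo, and Inha, Inhba and Cyp19a1 had medians of at most 0.0463 CPM in either group. Nearly all of the list's sum of 260 to 888 CPM in controls and 220 to 518 CPM in mutants was Nr5a2, which early embryos also express (260 to 888 and 220 to 518 CPM). The 6 trophectoderm markers summed to 8.11 to 205 and 2.77 to 157 CPM and 0 of 4 tested were called, and the 5 markers of the 2-cell stage summed to 0.271 to 12.5 and 3.19 to 10.9 CPM with 0 of 1 called. Of the 6 oocyte markers 1 rose, Oosp1, beside 4.37% of all tested genes. The 6 summed to 42.2 to 275 CPM in controls and 104 to 335 CPM in mutants. The mean of Oosp1 alone was 11.8 CPM in controls and 76.7 CPM in mutants. Of the 6, 4 had a log2 fold change below 0 and 2 above it, and the median was -0.25.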

How the data were processed

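RNA of 19 single 8C embryos was amplified with a 3′-biased protocol by the authors and sequenced as single-end reads of 50 bases. The authors deposited, per embryo, raw counts of reads on exons of 34937 Ensembl genes (release 82, GRCm38), without normalization. Per the file headers, featureCounts 1.5.0 was run without strand, requiring 10 overlapping bases, with reads counted for every gene they overlap and with multi-mapping reads kept. The submitters' notes name TopHat2. Groups were taken from the labels, with 9 Ehmt2Cntr and 10 Ehmt2Mat embryos.

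From these counts, edgeR 4.0.16 (R 4.3.3; filterByExpr, TMM, quasi-likelihood test, Benjamini-Hochberg over all 11754 tested genes, threshold 0.05) compared the maternal groups, and a fit with 4 groups compared zygotic genotypes. Intervals of 95% come from the same fits. Exact permutation tests, two-sided and unadjusted, used log2(CPM + 1). Of the gene IDs, 34599 had a symbol. No 2 embryos had identical counts. Alternatives were RLE and upper-quartile scaling, DESeq2 1.42.0, limma-voom (limma 3.58.1), other filters, thinned counts, removal of mitochondrial genes, a pseudocount of 0.1, a log2 fold threshold of 1, a replicate block, +/- embryos alone, each embryo left out, and, added after seeing the data, subtraction of overlapping genes' counts. Scripts were tested on simulated data. Shared 50-base windows were counted in GENCODE M21 transcripts, on either strand.

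The members and lists were chosen with earlier results of these data known. Named were the 10 members, Ehmt2, list genes that passed the test and the 2 genes most like each member. Jup, Cdc42, Pard6a, Llgl1, Stk11, Nr5a2, Crb3, Lin7c, Ovgp1 and the overlapping genes were named after their values were seen. Of 102 listed symbols besides the members 95 were in the files, and several of the rest are other names of listed genes. Reads without molecular identifiers are not independent molecules.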

Additional observations from a re-analysis of the deposited data

Results flagged for a closer look

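Of the 22 combinations of gene and group examined (the 10 genes and Ehmt2), 3 held an embryo farther from the rest of its group than Dixon's 95% critical value allows on log2(CPM + 1), all on the low side. Chance alone gives about 1 such group in 20. Pard3 in Ehmt2Cntr embryo 9 was 1.60 CPM, from 27 counts, while the other controls were at 15.2 CPM or more. Pard6b in Ehmt2Mat embryo 3 was 0.242 CPM, from 2 counts, against 7.23 CPM or more in the other mutants. Prkcz in Ehmt2Mat embryo 10 was 1.39 CPM, from 17 counts, against 7.06 CPM or more in the other mutants. Each is a different gene in a different embryo, and what the values rest on was not tested.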

How the results depend on the processing

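Over the 10 genes and Ehmt2, the log2 fold changes of Ctnna1, Prkcz, Rhoa and Ehmt2 kept their side of 0 and of the threshold under every alternative run. Ctnnb1 stayed below 0 in every one, from -0.87 to -0.68 with 1 embryo left out and from -0.81 to -0.26 otherwise, and its call was lost without 7 of the 19 embryos (adjusted p of 0.0138 to 0.0586 over all 19), with no filter on low counts and in both comparisons of +/- embryos. The sign changed for Cdh1 to 0.17 in the fit of +/- embryos alone and 0.19 in the matched contrast, for Pard6b to 0.63 and 0.65, and for Prkci to 0.23 and 0.26. With limma-voom, which moved the median of all genes from -0.04 to 0.10, Ctnnd1 turned to -0.026, Pard3 to 0.084 and Ezr to -0.37, while Pard6b moved to -0.11 without changing side. Subtracting the counts of Gm28635 turned Ctnnd1 to -0.28, which follows from how that alternative was built, and a pseudocount of 0.1 turned the Prkci difference to 0.0017. With 1 embryo left out, Ctnnd1 ran from -0.11 to 0.081 and Ezr from -0.23 to 0.42. None of these reversed values passed the test, and the cause was not tested.

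The number of genes called was 1771 with DESeq2, 1 in the fit of +/- embryos alone and 667 with a log2 fold threshold of 1, and 884 to 1262 with 1 embryo left out. The number of the 10 genes called was 0 with no filter, in +/- embryos alone and with the fold threshold, and 0 to 1 with 1 embryo left out. DESeq2 called 3 genes between Ehmt2M/Z and Ehmt2M/+ embryos (0 to 0 leaving 1 out, edgeR), 49 between control genotypes (0 to 1) and 96 in the matched contrast, where limma-voom and thinned counts called 0, no filter called 1 and leaving 1 embryo out gave 0 to 47, the highest without control embryo 10.

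The embryo numbers do not pair the samples: same-numbered embryos correlated between -0.156 and 0.0856 over 9 numbers. With the number as a replicate block, Pard6b was at -0.52 and 693 genes were called, Ctnnb1 among them (-0.81, adjusted p = 0.0157), Ctnnd1 turned to -0.0020 and Prkci to 0.19.

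Spread between embryos and loss of molecules during amplification cannot be told apart here, and for Pard6b single embryos had 2 and 3 counts.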
